A study of Mus musculus with 19 samples.

Results

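AP5 was set directly against NVP-AAM077 (NVP below), 2 antagonists of NMDA receptors, over every gene measured in cultured mouse hippocampal neurons. The comparison took the 5 arrays titled AP5 and the 4 arrays titled NVP, 9 of the 19 arrays in the series. The neurons had been dissociated, plated in wells and kept 21 days in vitro before 6 h with 100 µM AP5, with 100 nM NVP or with vehicle (5 arrays). The last 5 arrays, with 1 µM of a compound titled Ro25, were not compared here. They served to estimate the spread and, with the other arrays, to filter and choose the probes. All groups shared this culture and exposure time, and the labels name no strain, genotype or sex. Nothing in the labels says that the replicates were separate cultures, so the p-values cover the variation among these arrays, part or all of which may be technical. The doses differed by compound, so compound and dose cannot be told apart in any difference given here.

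NMDA receptors are glutamate-gated channels that pass calcium when the neuron is depolarised. In neurons with ongoing synaptic activity this calcium entry feeds CaM kinases and the Ras-ERK cascade, which act through CREB, SRF and other factors on immediate early genes (fast transcription factors) and on effector genes such as Bdnf and Arc. AP5 competes with glutamate at NMDA receptors of all GluN2 types, while NVP, also competitive, acts more strongly on receptors with a GluN2A subunit. The comparison therefore asks which transcripts stood apart after the broad antagonist and the GluN2A-preferring one, each at its own dose.

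Each array gave, for every probe, the log2 ratio of neuron RNA (red) over a universal mouse reference RNA (green), and a difference of 1 is a 2-fold difference. The 9 arrays had median red signals of 142.0 to 177.8 and 25117 to 28531 probes with red well above background, and none had a saturated gene spot. The number of arrays limits the precision, with a median standard error of 0.080 for a log2 difference between AP5 and NVP. The cultures were positive for excitatory neuron markers (mean log2 ratio to the reference of 2.79 with AP5 and 2.73 with NVP over 16 genes), for GABAergic interneuron markers (3.27 and 3.19 over 16) and for astrocyte markers (3.65 and 3.60 over 17). Oligodendrocyte lineage markers were also above the reference (2.02 with AP5 and 2.04 with NVP over 15). Microglia (-2.24 and -2.22 over 12) and meningeal fibroblast markers (-3.52 and -3.44 over 12) lay below the reference. So did endothelial and mural markers (-1.19 and -1.21 over 12) and proliferating progenitor markers (-0.90 and -0.86 over 12). In RNA from a whole culture, fewer cells of a type and less RNA per cell cannot be told apart. AP5 5 and NVP 4 each had the lowest astrocyte mean of their group, at 2.85 for both, against 3.60 to 4.15 on the other AP5 arrays and 3.72 to 4.02 on the other NVP arrays. The part of this in the results was not tested, and counts without both arrays are given below.

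Between AP5 and NVP, 814 of 19201 genes (4.24%) passed an adjusted p of 0.05. Of these, 553 (2.88% of genes tested) were higher with AP5 and 261 (1.36%) were lower. At 1.5-fold or more the counts were 74 higher (0.385%) and 52 lower (0.271%). The 5 AP5 and 4 NVP arrays did not overlap for 1558 genes (8.11%), which included 509 of the 553 higher and 243 of the 261 lower genes. The genes named below for the largest differences each way were taken only from those without overlap. For those genes the separation of the arrays is set by the choice and is no separate support. Other called genes were called from the same arrays, and 752 of the 814 called genes did not overlap. Separation is therefore no separate support for any called gene named below. The median difference over all genes was 0.0015, since loess centres every array near 0. Without AP5 5 and NVP 4 the counts were 348 higher and 165 lower. Among the genes called lower were 6 of 28 immediate early factors, of which 4 others were higher, 8 of 33 activity-regulated effectors and 7 of 14 ERK feedback genes. Among those called higher were Icosl, 5 of 25 pro-apoptotic genes, 2 of 9 anti-apoptotic genes and Gadd45a, Gadd45b and Gadd45g.

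Both groups can be read against vehicle, with the caution that both comparisons use the same 5 vehicle arrays. The AP5 and NVP arrays also chose the genes called between them. The medians and counts over those genes are therefore partly set by that choice and are no separate support. Against vehicle, AP5 had 3464 called genes (18%), of which 2077 were higher (10.8%) and 1387 lower (7.22%). For NVP, limma called 0 genes (0%), with 1592 genes (8.29%) at an unadjusted p under 0.05. Among the 553 genes higher with AP5 than with NVP, the median difference from vehicle was 0.42 with AP5 and 0.052 with NVP. Among the 261 lower genes these medians were -0.41 and -0.053. The AP5 difference from vehicle was itself called in the same direction for 538 of the 553 (97.3%) and 252 of the 261 (96.6%). The NVP mean lay on the AP5 side of vehicle for 425 of the 553 and 195 of the 261, and on the other side for 128 and 66.

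**Figure D1:**
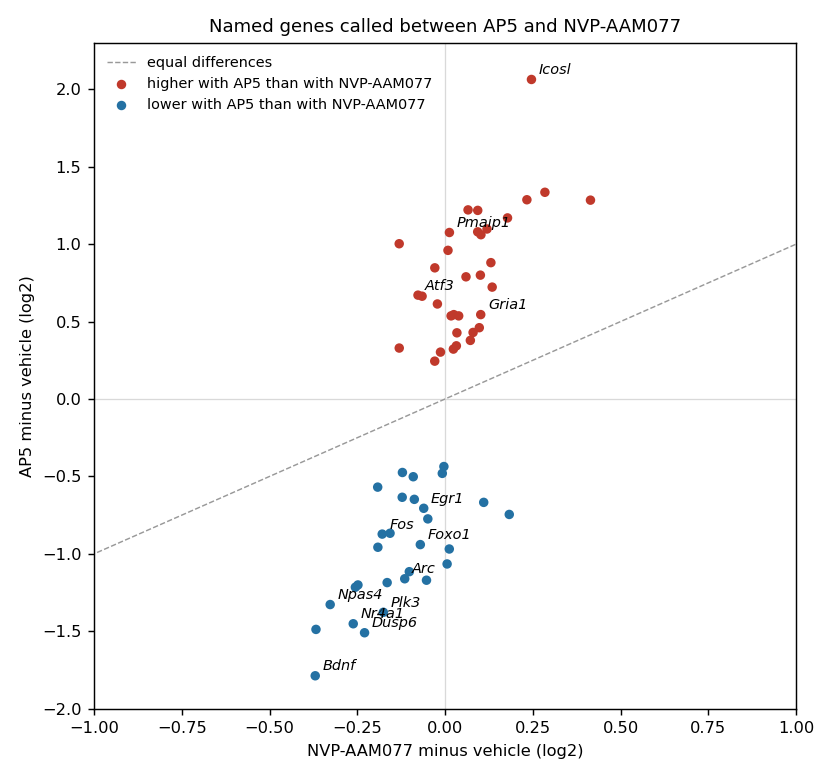
Difference from vehicle with NVP-AAM077 (horizontal, log2) and with AP5 (vertical, log2) for the 63 named genes called between the compounds, red where higher and blue where lower with AP5. Both axes share the vehicle arrays, and the AP5 and NVP arrays shown also chose the genes. Each point lies farther from 0 on the vertical axis than on the horizontal axis, as for Icosl (2.06 with AP5 and 0.25 with NVP) and Bdnf (-1.79 and -0.37).

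Immediate early transcription factors moved in both directions. Of 28 measured, 6 (21.4%) were lower with AP5 than with NVP and 4 (14.3%) were higher, against 1.36% and 2.88% of all genes tested. Their median was -0.13 against 0.0015 over all genes. The lower members were Nr4a1, Npas4, Egr4, Egr1, Fos and Nr4a2. The higher members were Atf3, Jun, Jund and Klf4, of which Atf3 is a factor induced by many kinds of stress and Jun and Jund are partners in AP-1. With slide as a fixed block only Nr4a1 stayed lower and Atf3 higher (1 each way). The list held 2 lower and 0 higher members with log ratios scaled to one spread between arrays. It held 3 and 1 with flagged spots kept in the background and loess fits, though still given no value. Without the slide 2 arrays it held 4 and 1, and without AP5 5 and NVP 4 it held 5 and 4.

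Nr4a1, an orphan nuclear receptor induced by calcium signals, stood at log2 ratios of -2.55, -2.32, -2.37, -2.62 and -2.45 on AP5 1 to 5 and -1.24, -1.30, -1.40 and -1.14 on NVP 1 to 4, with vehicle at -1.25 to -0.71. All AP5 arrays were below all NVP arrays, and Nr4a1 fell by 2.28-fold (log2 difference -1.19 ± 0.089 (SE; adjusted p = 2.78e-07)). Npas4, a factor with a basic helix-loop-helix domain that responds selectively to depolarisation, was at -0.18, 0.031, 0.0055, -0.085 and -0.16 with AP5, 0.82, 1.18, 0.71 and 0.98 with NVP and 0.89 to 1.69 with vehicle. Its groups did not overlap and the difference was -1.0 ± 0.14 (SE; adjusted p = 0.000137), but only 1 of the 5 AP5 arrays had red well above background, against 4 of 4 NVP arrays. Its size is therefore poorly fixed: it was -1.69 with a normexp offset of 10 and -2.88 in the log ratio deposited in the scanner files.

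Among the zinc-finger factors, Egr1 was at -2.80 to -2.09 with AP5 and -2.05 to -1.60 with NVP, a difference of -0.64 (adjusted p = 0.0106). Egr4 was at 5.62 to 6.46 against 6.87 to 7.29, a difference of -0.93 (adjusted p = 0.00835). For Egr4 the reference channel also differed, by -0.37 (adjusted p = 0.0144), and the log ratio deposited in the scanner files turned the sign, to 0.54 (adjusted p = 0.303). Fos, a subunit of AP-1, was at -3.52, -3.06, -3.20, -3.36 and -3.83 with AP5 and -2.57, -2.59, -2.49 and -3.17 with NVP, a difference of -0.69 (adjusted p = 0.0461), and NVP 4 lay inside the AP5 range. Nr4a2 differed by -0.51 (adjusted p = 0.0388) with no overlap. The calls of Fos and Nr4a2 depended on single arrays: Fos missed the threshold without AP5 1, AP5 3, AP5 4, AP5 5, NVP 1, NVP 2 and NVP 3 (-0.85 to -0.58, adjusted p up to 0.14), and Nr4a2 without AP5 1, AP5 2, AP5 3, AP5 4, AP5 5, NVP 1, NVP 2 and NVP 4 (-0.60 to -0.46, adjusted p up to 0.124).

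Atf3 ran from -1.82 to -0.83 on the AP5 arrays and from -2.41 to -1.87 on the NVP arrays, a difference of 0.75 (adjusted p = 0.00618). Its highest array was AP5 5. Jun was at 1.73, 1.5, 1.58, 1.73 and 1.69 with AP5 and 1.18, 1.32, 1.07 and 1.01 with NVP, and rose by 1.41-fold (0.50 (adjusted p = 0.00168)). Jund rose by 0.36 (adjusted p = 0.0043) and Klf4, a zinc-finger factor, by 0.32 (adjusted p = 0.00836), and neither overlapped between the groups.

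Promoters of 3 lower genes are shown in which the letters of a half-site for CREB, the calcium- and cAMP-responsive factor, were present before the start site: Nr4a1, Npas4 and Bdnf. Each is the 250 bases before an annotated start, read 5′ to 3′ from RefSeq (GRCm38.p6), with TGACG on either strand in capitals. They were chosen after the values were seen.
Nr4a1 (chr15:101266596-101266845, plus strand): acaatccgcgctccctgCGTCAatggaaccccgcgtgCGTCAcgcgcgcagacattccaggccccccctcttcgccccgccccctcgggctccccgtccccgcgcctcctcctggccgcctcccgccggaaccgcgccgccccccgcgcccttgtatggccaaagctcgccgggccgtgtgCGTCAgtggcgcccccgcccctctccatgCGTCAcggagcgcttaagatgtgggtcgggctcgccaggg
Npas4 (chr19:4989972-4990221, minus strand): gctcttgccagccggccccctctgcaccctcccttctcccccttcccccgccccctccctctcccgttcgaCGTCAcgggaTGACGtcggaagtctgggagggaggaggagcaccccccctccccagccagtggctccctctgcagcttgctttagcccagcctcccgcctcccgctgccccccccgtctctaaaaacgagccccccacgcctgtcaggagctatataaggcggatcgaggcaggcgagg
Bdnf (chr2:109692186-109692435, plus strand): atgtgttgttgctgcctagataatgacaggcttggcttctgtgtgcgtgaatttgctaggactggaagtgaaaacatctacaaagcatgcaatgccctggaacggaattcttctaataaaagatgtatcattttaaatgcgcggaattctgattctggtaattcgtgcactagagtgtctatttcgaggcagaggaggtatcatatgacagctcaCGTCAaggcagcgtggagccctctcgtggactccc
The Nr4a1 window held 4 matches, with first bases 233, 213, 69 and 40 before the start, the Npas4 window held 2, at 179 and 169, and the Bdnf window held 1, at 35. The table listed 7 starts for Bdnf, and this was the only window of the 7 with a match. In windows that also took in the first 50 transcribed bases, TGACG on either strand was present in 20.8% of 32851 promoters, in 6 of the 18 promoters listed for 9 of the 12 genes with the largest lower differences and in 5 of the 13 listed for 11 of the 12 largest higher ones. The full palindrome TGACGTCA was in 1.79% of all promoters and in 0 of the 18 and 0 of the 13. The serum response element, searched by its consensus, was in 1.63%, in 0 of the 18 and in 1 of the 13 (Prkab2). The EGR letters GCGGGGGCG were in 2.91% of all, in 2 of the 18 (Nr4a1 and Lmo4) and in 0 of the 13. These matches describe the letters and are no evidence of binding.

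Of 33 measured activity-regulated effector genes, 8 (24.2%) were lower with AP5 than with NVP and 0 were higher, with a list median of -0.13. Over all genes tested 1.36% were lower. The 8 were Bdnf, Plk3, Ptgs2, Arc, Per2, Rasl11a, Rgs2 and Nrn1. The count was 8 without AP5 5 and NVP 4, and 1 with slide as a fixed block.

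Bdnf, the neurotrophin released by active neurons that signals through TrkB, had the largest fall. Its log2 ratios were 0.83, 0.44, 0.49, 0.50 and 1.09 with AP5, 2.08, 2.06, 1.86 and 2.35 with NVP and 2.14, 2.45, 2.79, 2.48 and 2.42 with vehicle. Every AP5 array was below every NVP array, by 2.67-fold in the means (difference -1.42 ± 0.14 (SE; adjusted p = 4.23e-06)), and NVP overlapped vehicle. The probe lies at chr2:109524885-109524944 (mm8), and the other Bdnf probe gave -1.46. Against vehicle, Bdnf differed by -1.79 with AP5 (adjusted p = 6.13e-08) and by -0.37 with NVP (95% confidence interval -0.67 to -0.071, adjusted p = 0.471). The other members of the neurotrophin list did not pass the test between AP5 and NVP (1 of 11 called, 9.09%, against 4.24% of all genes).

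Arc, which promotes removal of AMPA receptors from the synapse, was at 1.65, 1.28, 1.33, 1.12 and 1.89 with AP5 and 2.42, 2.38, 2.36 and 2.84 with NVP. The groups did not overlap, with a difference of -1.05 ± 0.14 (SE; adjusted p = 0.000165), and AP5 5 and NVP 4 were the highest arrays of their groups. Plk3, a polo-like kinase, was at -1.47, -1.82, -1.81, -1.79 and -1.33 with AP5 and -0.62, -0.52, -0.60 and -0.013 with NVP, and fell by 2.3-fold (-1.20 ± 0.15 (SE; adjusted p = 7.46e-05)). Ptgs2, the inducible cyclooxygenase, was at -2.64, -2.68, -2.55, -2.74 and -2.42 against -1.61, -1.74, -1.55 and -1.05, a difference of -1.12 ± 0.17 (SE, adjusted p = 0.000337). Its other probe gave -1.25, and its adjusted p was 0.065 with flagged spots kept in the background and loess fits. Again no AP5 array reached the NVP range for either gene. The rule that named Arc, Plk3 and Ptgs2 required groups without overlap, so their separation is no separate support.

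Per2, a repressor of the circadian clock that is also induced by calcium, was at -0.40, -0.31, -0.38, -0.34 and -0.17 with AP5 and 0.68, 0.75, 0.47 and 0.73 with NVP. Its difference was -0.98 ± 0.076 (SE; adjusted p = 2.78e-07), but the other Per2 probe gave 0.037, so the gene's probes disagree. Rasl11a, a Ras-like small GTPase, differed by -0.95 (adjusted p = 2.35e-06). Rgs2, which speeds the turning off of G proteins, differed by -0.71 (adjusted p = 0.002) and Nrn1, the membrane-anchored neuritin, by -0.41 (adjusted p = 0.000868). All of these were without overlap between the groups.

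Of 14 measured ERK pathway feedback genes, 7 were lower with AP5 than with NVP and 0 were higher. The other 7 did not pass the test, although all 14 differences were negative, and the median was -0.40. Over all genes tested the median was 0.0015 and 1.36% were called lower. The list counts the phosphatases and the Sprouty and Spred inhibitors that ERK signalling induces and that restrain it. It also counts ETS factors that ERK signalling induces. Without AP5 5 and NVP 4, 6 members were called. With flagged spots kept in the background and loess fits 4 were, and with slide as a fixed block 2 were.

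Dusp6, the cytosolic phosphatase of ERK, was at -0.98, -1.20, -1.46, -1.57 and -0.78 with AP5 and -0.055, -0.10, -0.15 and 0.64 with NVP, and at -0.041 to 0.75 with vehicle. The AP5 arrays were all lower than the NVP arrays, and NVP 4 stood well above the other NVP arrays. Dusp6 fell by 2.43-fold (-1.28 ± 0.19 (SE; adjusted p = 0.000315)). Spred2, which inhibits Ras-Raf signalling, was at -0.88, -0.74, -0.82, -0.63 and -0.59 with AP5 and 0.34, 0.44, 0.18 and 0.58 with NVP, a 2.17-fold fall (-1.12 ± 0.094 (SE; adjusted p = 5.19e-07)) with -0.85 at its other probe. Its relative Spred3 differed by -0.56 (adjusted p = 0.000967). Dusp7, a further ERK phosphatase, differed by -0.43 (adjusted p = 0.00121) and Etv5, an ETS factor, by -0.35 (adjusted p = 0.00654).

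Spry4, a Sprouty inhibitor of receptor tyrosine kinase signalling, differed by -0.78 (adjusted p = 0.0196) without overlap, and Dusp4, a nuclear phosphatase, by -0.77 (adjusted p = 0.0294) with overlap. Spry4 missed the threshold without AP5 3, NVP 2 and NVP 4 (-0.90 to -0.70, adjusted p up to 0.0685), and Dusp4 without AP5 2, AP5 3, AP5 4, NVP 2 and NVP 4 (-0.90 to -0.58, adjusted p up to 0.11).

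**Figure D2:**
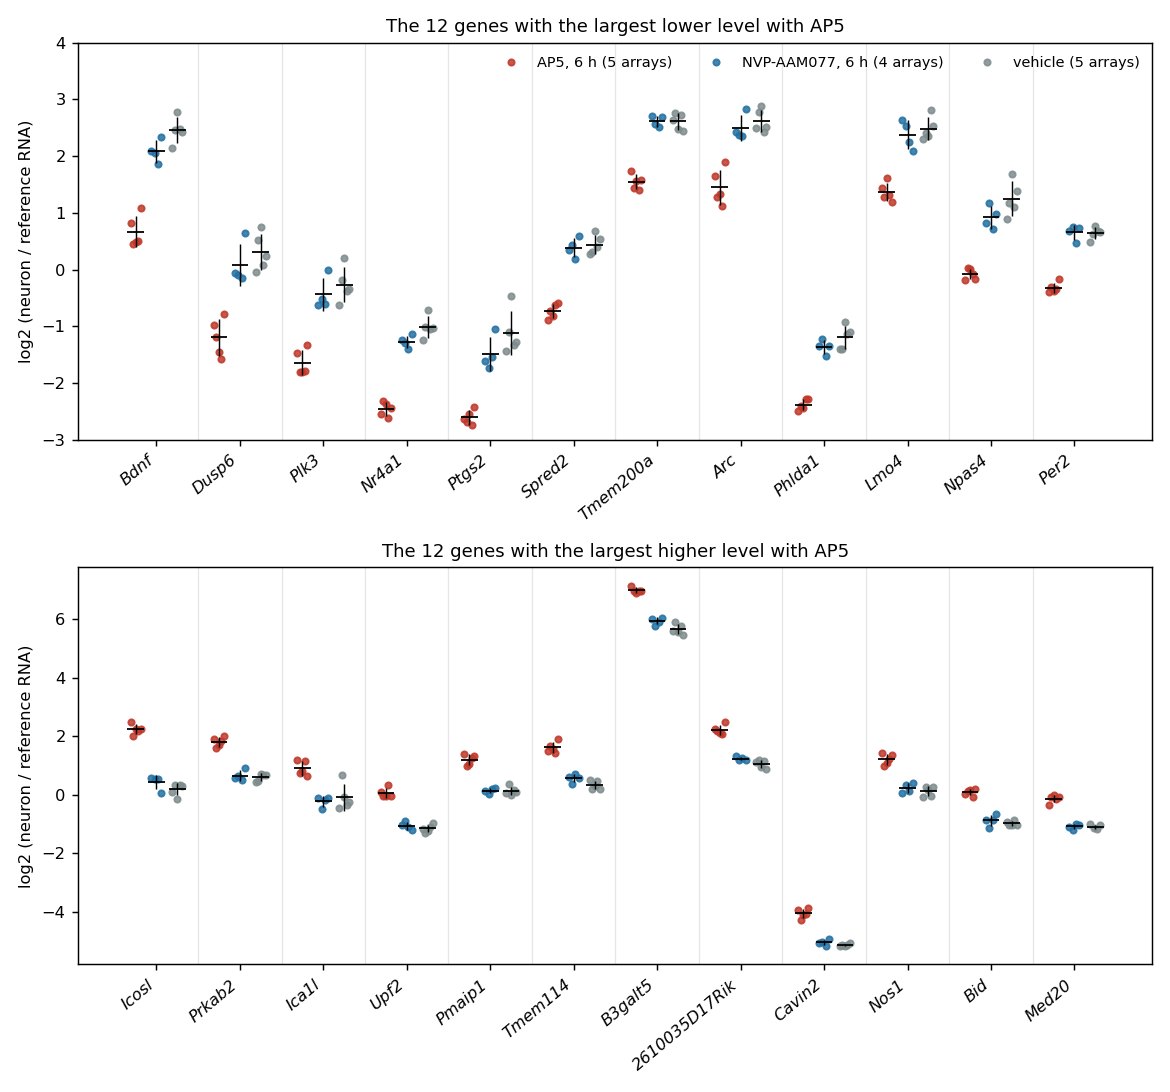
Log2 ratio of neuron over reference RNA on each array for the 12 genes with the largest lower (top) and higher (bottom) levels with AP5 than with NVP-AAM077, taken from called genes with a current symbol and no overlap between these arrays; points are arrays, horizontal bars group means and vertical bars 1 SD. The choice fixes that AP5 and NVP points lie apart, and the plot shows by how much, as for Bdnf (0.44 to 1.09 against 1.86 to 2.35) and Icosl (2.03 to 2.50 against 0.07 to 0.59).

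The other genes with the largest falls belonged to none of the lists. Tmem200a, a transmembrane protein, was at 1.41 to 1.74 with AP5 and 2.51 to 2.71 with NVP (-1.07 (adjusted p = 3.5e-07)). Lmo4, a LIM-only cofactor of transcription, was at 1.19 to 1.61 against 2.09 to 2.64 (-1.01 (adjusted p = 3.16e-05)), and its other probes gave -0.73 and -0.55. Phlda1 was at -2.50 to -2.28 against -1.53 to -1.23 (-1.02 (adjusted p = 1.05e-06)).

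On the higher side, Icosl stood farthest from all others. Icosl encodes the ligand of ICOS, a costimulator of T cells. It was at 2.50, 2.03, 2.26, 2.19 and 2.26 with AP5, 0.59, 0.54, 0.53 and 0.072 with NVP and 0.077, 0.34, -0.13, 0.33 and 0.31 with vehicle. The AP5 arrays were 3.52-fold above NVP (1.82 ± 0.11 (SE; adjusted p = 2.89e-08)) with no overlap, and NVP 4 was the only NVP array inside the vehicle range. The probe lies at chr10:77482595-77482654 (mm8). NVP differed from vehicle by 0.25 (95% confidence interval 0.012 to 0.48, adjusted p = 0.562).

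The next higher genes differed by about 2-fold. Prkab2, a regulatory subunit of the energy sensor AMPK, was at 1.90, 1.60, 1.69, 1.85 and 2.02 with AP5 and 0.58, 0.63, 0.50 and 0.92 with NVP (1.16 ± 0.11 (SE; adjusted p = 1.78e-06)). Camkk1, a calcium-dependent kinase that activates CaM kinases, rose by 1.68-fold (0.75 (adjusted p = 1.61e-06)) and was the only called member of 22 calcium-dependent kinase and calcineurin genes. That is 4.55% of the list, near the 4.24% of all genes called. The reference channel for Camkk1 also differed, by 0.17 (adjusted p = 0.0163). Nos1, the neuronal nitric oxide synthase that is tethered near NMDA receptors, was at 1.43, 0.99, 1.09, 1.21 and 1.35 with AP5 and 0.056, 0.34, 0.14 and 0.41 with NVP (0.98 ± 0.11 (SE; adjusted p = 1.88e-05)). In the authors' processed table Nos1 differed by 0.059 (adjusted p = 0.728), at another probe that did not pass the filter on dim probes here.

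Med20, a subunit of the Mediator complex, differed by 0.95 (adjusted p = 2.78e-07) and its other probe gave 1.0. Upf2, a factor of nonsense-mediated RNA decay, differed by 1.12 (adjusted p = 1.61e-06), while its 3 other probes ranged from 0.038 to 0.79, and the probe in the authors' processed table gave 0.038 (adjusted p = 0.89). Ica1l differed by 1.13 (adjusted p = 0.00502), with 0.15 at its other probe. In the red channel alone Ica1l differed by 0.39 (adjusted p = 0.178), and in the reference channel by -0.72 (adjusted p = 0.108). B3galt5, a galactosyltransferase, differed by 1.05 (adjusted p = 1.55e-06), Tmem114 by 1.05 (adjusted p = 1.78e-06), 2610035D17Rik by 0.99 (adjusted p = 4.72e-07) and Cavin2, a coat protein of caveolae, by 0.99 (adjusted p = 2.78e-07). Each of the last 4 was measured by 1 kept probe. B3galt5 missed the threshold with flagged spots kept in the background and loess fits (0.83 (adjusted p = 0.569)).

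Of 25 measured pro-apoptotic genes, 5 (20%) were higher with AP5 than with NVP and 0 were lower, with a median of 0.036. Over all genes tested 2.88% were higher and 1.36% lower. They were Pmaip1, Bid, Apaf1, Bbc3 and Casp2. Pmaip1 (Noxa), Bid and Bbc3 (Puma) are BH3-only proteins that act on the BCL2 family at mitochondria, Apaf1 builds the apoptosome and Casp2 is an initiator caspase. The other 20 members did not pass the test. The list held 3 higher members with scaled log ratios and 3 with flagged spots kept in the background and loess fits. It held 4 without AP5 5 and NVP 4 and 2 without the 3 arrays of slide 2.

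Pmaip1 was at 1.39, 0.99, 1.05, 1.25 and 1.34 with AP5, 0.13, 0.014, 0.20 and 0.22 with NVP and -0.014 to 0.36 with vehicle, and rose 2.09-fold over NVP (1.06 ± 0.089 (SE; adjusted p = 5.19e-07)). Bid was at 0.028, 0.11, 0.17, -0.077 and 0.19 with AP5 and -0.85, -1.12, -0.87 and -0.65 with NVP, a 1.94-fold rise (0.96 ± 0.088 (SE; adjusted p = 1.61e-06)). For both genes the groups were well apart. Bbc3 was at 1.54, 1.19, 1.20, 1.20 and 1.76 against 0.75, 0.73, 0.82 and 1.14 (0.52 (adjusted p = 0.0159)), and Apaf1 at -0.45, -0.75, -0.78, -0.63 and -0.35 against -1.24, -1.09, -1.21 and -0.91 (0.52 (adjusted p = 0.00371)), although the 2 other Apaf1 probes gave -0.02 and 0.23. Casp2 differed by 0.35 (adjusted p = 0.0213). For Bbc3, Apaf1 and Casp2 the highest AP5 array was AP5 5. Bbc3 missed the threshold without NVP 1 and NVP 2 (0.42 to 0.61, adjusted p up to 0.0669) and Casp2 without AP5 1, AP5 5, NVP 1 and NVP 2 (0.29 to 0.40, adjusted p up to 0.105).

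Of 9 anti-apoptotic genes, 2 (22.2%) were also higher, against 2.88% of all genes tested, and 0 lower, with a median of -0.0063. Cflar, an inhibitor of caspase-8 activation, was at 0.43, 0.039, -0.084, -0.38 and 0.94 with AP5 and -0.84, -1.04, -0.65 and -0.22 with NVP, a difference of 0.88 (adjusted p = 0.0277). AP5 4 overlapped the NVP arrays, and the 5 other Cflar probes ranged from -0.0015 to 0.60. Birc2, an inhibitor-of-apoptosis protein, differed by 0.27 (adjusted p = 0.0338). The Cflar call was lost without AP5 1, AP5 5, NVP 1, NVP 2 and NVP 3 (0.69 to 1.03, adjusted p up to 0.118) and the Birc2 call without AP5 1, AP5 3, AP5 5, NVP 1, NVP 2 and NVP 3 (0.24 to 0.32, adjusted p up to 0.101).

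Of 15 measured stress-inducible genes of the Gadd45 and Atf families, 5 (33.3%) were higher, 0 were lower and the median was 0.18. Over all genes tested 2.88% were higher. The list shares Atf3 with the immediate early factors and Gadd45a with the FOXO list. Gadd45g was at 0.052, -0.025, 0.11, 0.20 and 0.23 with AP5 and -0.67, -0.55, -0.59 and -0.54 with NVP (0.70 ± 0.056 (SE; adjusted p = 3.5e-07)). Gadd45b was at 0.67, 0.20, 0.38, 0.31 and 0.85 against -0.29, -0.40, -0.27 and -0.026 (0.73 ± 0.12 (SE; adjusted p = 0.000868)), with 0.54 at its other probe. Gadd45a was at -1.51, -1.79, -1.91, -1.86 and -1.53 against -2.38, -2.44, -2.22 and -2.38 (0.64 ± 0.074 (SE; adjusted p = 2.38e-05)). The Gadd45 proteins respond to genotoxic and other stress, and in neurons Gadd45b and Gadd45g are also activity-regulated. None of the 3 overlapped between the groups. Ddit3 (CHOP), a factor of the integrated stress response, differed by 0.30 (adjusted p = 0.0247) and missed the threshold without AP5 1, NVP 1, NVP 2 and NVP 3 (0.23 to 0.34, adjusted p up to 0.0985). The list held 2 higher members with scaled log ratios and 3 with flagged spots kept in the background and loess fits. It held 5 without AP5 5 and NVP 4 and 3 without the slide 2 arrays.

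FOXO-regulated genes gave 3 higher (15.8%) and 1 lower (5.26%) of 19, against 2.88% and 1.36% of all genes tested, with a median of 0.18. The lower member was Foxo1 itself, a transcription factor restrained by PI3K-AKT signalling, at -1.64, -1.30, -1.34, -1.26 and -1.78 with AP5 and -0.54, -0.32, -0.69 and -0.83 with NVP (-0.87 ± 0.12 (SE; adjusted p = 0.000232)). Its other probe gave -0.63. The higher members were Gadd45a, Pik3ip1, an inhibitor of PI3 kinase (0.59 (adjusted p = 0.00173), with AP5 5 not measured), and Txnip, which binds and inhibits thioredoxin (0.46 (adjusted p = 0.0148)). The other Pik3ip1 probe gave 0.11 and the other Txnip probe 0.16. Txnip missed the threshold without NVP 2 and NVP 4 (0.41 to 0.53, adjusted p up to 0.0662).

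The transcripts of the drug targets did not pass the test. Of 7 NMDA receptor subunit genes, 0 were called, against 4.24% of all genes, and the median was 0.039. Grin1, the obligatory subunit, was at 1.0, 1.24, 1.17, 1.49 and 1.14 with AP5 and 1.35, 1.07, 1.13 and 1.03 with NVP, a difference of 0.065 (adjusted p = 0.805) with a 95% confidence interval of -0.12 to 0.25. Grin2a, which encodes GluN2A, was at 0.70, 0.89, 0.56, 0.97 and 0.58 against 1.04, 1.10, 0.74 and 0.76 (-0.17 (adjusted p = 0.538), interval -0.42 to 0.076). Grin2b, which encodes GluN2B, was at 2.09, 1.96, 2.12, 2.47 and 1.82 against 2.32, 2.55, 1.87 and 1.74 (-0.027 (adjusted p = 0.971), interval -0.37 to 0.32). All 3 overlapped between the groups, and these intervals leave room for differences of up to about the size of their bounds.

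Of 20 AMPA receptor, kainate receptor and TARP genes, 2 (10%) were called, both higher with AP5, against 2.88% of all genes tested. Gria2, the subunit that makes AMPA receptors impermeable to calcium, was at 6.32, 6.18, 6.22, 6.25 and 6.31 with AP5 and 6.00, 5.94, 5.94 and 5.93 with NVP, a difference of 0.31 (adjusted p = 0.0115). Gria1 was at 6.52, 6.00, 6.06, 6.18 and 6.22 against 5.81, 5.51, 5.85 and 5.85, a difference of 0.44 (adjusted p = 0.0467). Neither overlapped, but the 2 other Gria2 probes gave 0.13 and 0.14 and the other Gria1 probe 0.13. Gria1 missed the threshold without AP5 1, AP5 3, AP5 4, AP5 5, NVP 1, NVP 2, NVP 3 and NVP 4 (0.36 to 0.49, adjusted p up to 0.186), and in the red channel alone its sign turned, at -0.067 (adjusted p = 0.808).

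Other synaptic lists held few or no calls. None of 6 metabotropic glutamate receptor (median 0.22), 12 GABA-A receptor (0.14), 25 postsynaptic scaffold and adhesion (0.026), 29 presynaptic release (0.045) or 18 neuropeptide genes (0.12) passed the test at the brightest probe. Over all genes 4.24% passed. Tested over all kept probes, another probe passed for Grm5 (0.41 (adjusted p = 0.0118)) and for Gabrb2 (0.45 (adjusted p = 0.0482)), and the brightest probes gave 0.31 and 0.25. In the last 4 lists the member with the smallest p was Gabra5 (0.14 (adjusted p = 0.328)), Lrrtm1 (0.50 (adjusted p = 0.0792)), Sv2b (0.27 (adjusted p = 0.0728)) and Chgb (0.36 (adjusted p = 0.104)), in that order. Of 29 voltage-gated channel genes, 1 was called (3.45%, against 4.24% of all genes): Kcna4, an A-type potassium channel, at 3.98, 3.45, 3.43, 3.33 and 4.12 with AP5 and 4.37, 4.31, 4.32 and 4.55 with NVP (-0.72 (adjusted p = 0.0162)). Without NVP 4 it missed the threshold (adjusted p = 0.0557).

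Hdac4, the class IIa histone deacetylase in the series title, was at 0.82, 0.74, 0.84, 1.08 and 0.83 with AP5 and 0.33, 0.71, 0.11 and 0.45 with NVP, and at 0.16 to 0.60 with vehicle. The lowest AP5 array was above the highest NVP array, but the difference of 0.46 (95% confidence interval 0.19 to 0.73) did not pass the threshold (adjusted p = 0.054). Its relative Hdac5, a signal-dependent repressor of MEF2 factors, was at 0.17, 0.17, 0.17, 0.21 and 0.24 against 0.60, 0.61, 0.51 and 0.56 and fell by 1.3-fold (-0.38 (adjusted p = 8.29e-05)). Hdac5 was the only called gene among 8 class IIa deacetylases and MEF2 factors (12.5%, against 4.24% of all genes). Of the 11 other histone deacetylases 0 were called, with Hdac1 nearest (-0.15 (adjusted p = 0.24)).

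Metabolic lists split. Of 24 cholesterol genes, 3 (12.5%, against 1.36% of all genes) were lower, 0 were higher and 20 had a negative difference (median -0.16). The lower genes included the synthesis enzyme Msmo1 (-0.47 (adjusted p = 0.0053)), while a dimmer probe of the synthesis enzyme Sc5d was higher over all kept probes (0.30 (adjusted p = 0.00982)). Of 25 glucose, glycolysis and hypoxia genes, Ankrd37, a hypoxia-inducible gene, was lower (-0.96 (adjusted p = 2.35e-06)) and Pfkfb3, a driver of glycolysis, was higher (0.73 (adjusted p = 0.0197)). Each was 4% of the list, against 1.36% lower and 2.88% higher over all genes. The 2 other Pfkfb3 probes gave 0.092 and 0.18, and the call was lost without NVP 4 (adjusted p = 0.08).

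Among 19 circadian clock genes Per2 was lower, and Nr1d2, a nuclear receptor that represses clock genes (0.31 (adjusted p = 0.0149)), and Tef (0.39 (adjusted p = 0.0299)), a factor driven by the clock, were higher. This made 5.26% lower and 10.5% higher, against 1.36% and 2.88% of all genes. Nr1d2 missed the threshold without NVP 2 (0.28 to 0.33, adjusted p up to 0.0679) and Tef without AP5 3, AP5 4, NVP 3 and NVP 4 (0.33 to 0.46, adjusted p up to 0.11). Neither the 25 antioxidant and thiol enzymes (median 0.0048, nearest Sesn1 with 0.37 (adjusted p = 0.132)) nor the 17 heat shock and chaperone genes (-0.040, nearest Hspa1a with 0.19 (adjusted p = 0.323)) held a called gene at the brightest probe. A dimmer Sesn1 probe passed over all kept probes (0.30 (adjusted p = 0.0386)).

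Cell type markers gave 1 call in 8 lists of 12 to 17 measured genes each. Taken over all 8 lists this share was below the 4.24% of all genes. The call made 8.33% of the 12 measured in its own list. Kdr, a VEGF receptor on the list of endothelial and mural markers, was at 3.64, 3.35, 3.20, 3.14 and 3.75 with AP5 and 2.58, 2.47, 2.53 and 2.61 with NVP (0.87 ± 0.14 (SE; adjusted p = 0.000933)), while the other 11 markers of that list did not pass. The Kdr call was lost with flagged spots kept in the background and loess fits (0.55 (adjusted p = 0.889)). Over all kept probes, a dimmer probe passed for Acta2, a mural marker (-0.33 (adjusted p = 0.029)), and for Neurod2, an excitatory neuron marker (0.39 (adjusted p = 0.029)). The nearest member was Calb1 for excitatory neurons (0.19 (adjusted p = 0.137)), Cck for interneurons (0.25 (adjusted p = 0.147)), Mlc1 for astrocytes (0.20 (adjusted p = 0.369)), Cspg4 for the oligodendrocyte lineage (-0.24 (adjusted p = 0.203), with NVP 3 not measured), Fcer1g for microglia (-0.20 (adjusted p = 0.306)), Fn1 for fibroblasts (-0.15 (adjusted p = 0.294)) and Top2a for progenitors (-0.12 (adjusted p = 0.561)).

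**Figure D3:**
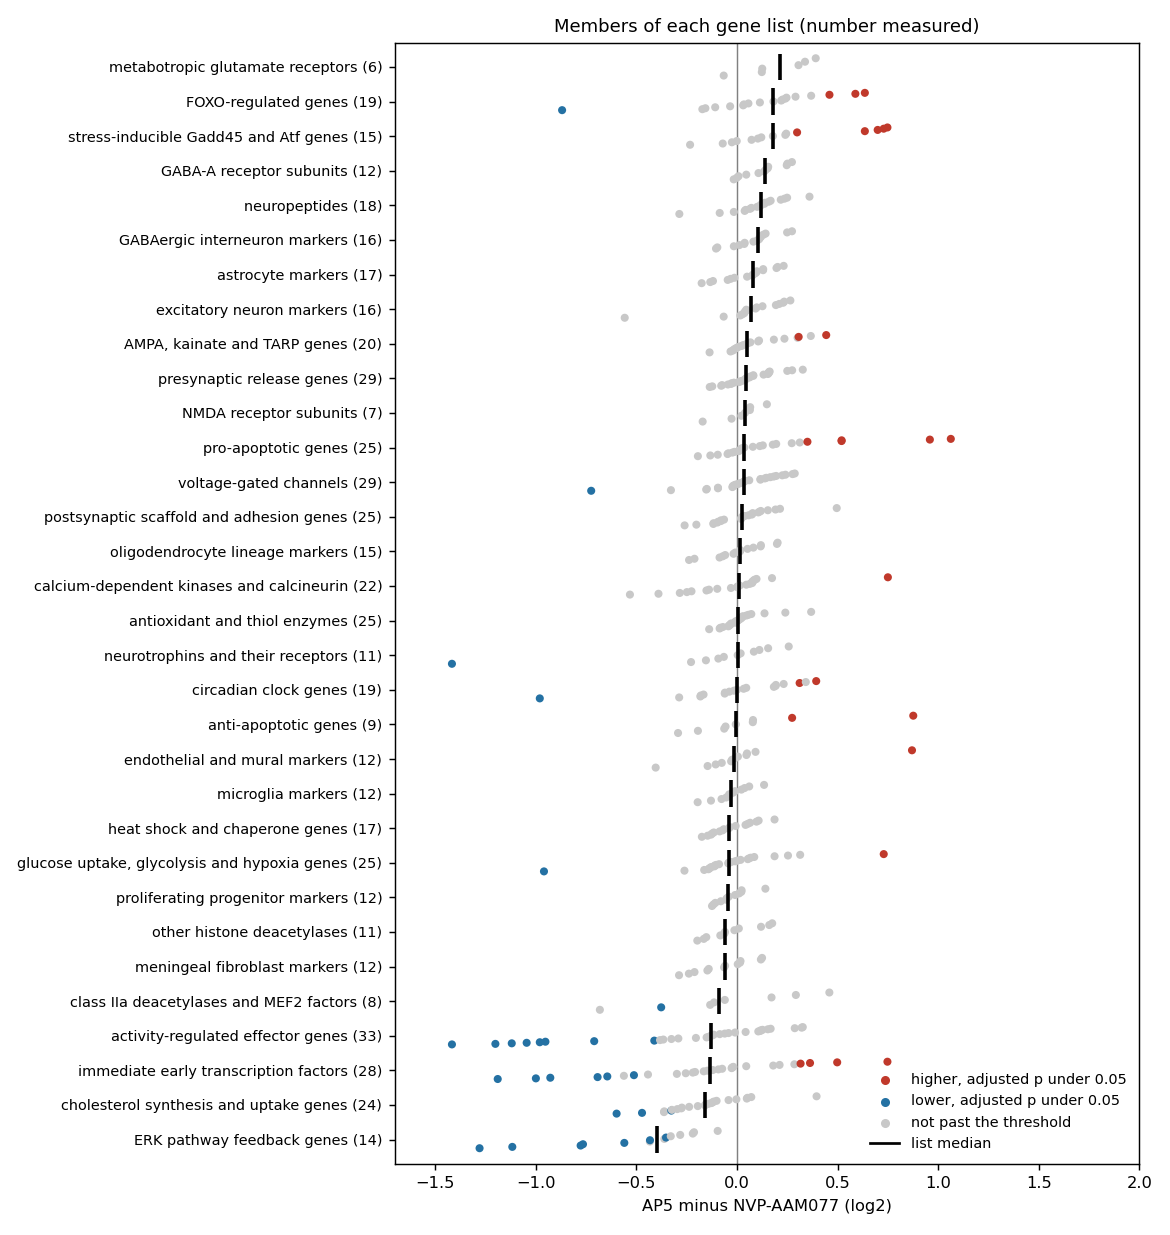
AP5 minus NVP-AAM077 (log2) for each measured member of 32 gene lists, sorted by list median (black bar), with red and blue for members called higher and lower and grey for the rest. ERK pathway feedback genes have the lowest median (-0.40) and no member above 0, and most other medians lie within 0.2 of 0.

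Slides were tied to treatment. AP5 1 to 4 lay on a slide of their own (slide 1), NVP 2 and 4 shared slide 3 with Ro25 arrays, and AP5 5, NVP 1 and NVP 3 shared slide 2. Only slide 2 therefore compares the compounds on the same glass, with 1 array against 2. The arrays off slide 2 (AP5 1 to 4 against NVP 2 and 4) called 371 genes (1.93%), and 366 of these had a value on slide 2, from arrays not used in that call. The slide 2 difference had the same direction for 328 of the 366 (89.6%), against 9818 of 19105 genes (51.4%) over all genes. At 1.5-fold or more it was 121 of 130 (93.1%). The median size of the difference over the 366 was 0.48 off slide 2 and 0.37 on it.

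With slide as a fixed block, which leaves only slide 2 for this comparison, 142 genes were called higher and 41 lower. Among the genes shown above, Icosl differed by 1.70 on slide 2 and 1.94 off it, Nr4a1 by -1.13 and -1.24, and Pmaip1 by 1.17 and 1.05. These were of like size. Others were smaller on slide 2, with Bdnf at -0.88 against -1.64, Arc at -0.50 against -1.26, Dusp6 at -0.68 against -1.57, Spred2 at -0.85 against -1.28, Plk3 at -0.72 against -1.45, Egr1 at -0.12 against -0.89 and Dusp4 at -0.0046 against -1.12. Further genes were larger on slide 2, with Atf3 at 1.46 against 0.47, Gadd45b at 1.13 against 0.60 and Bbc3 at 0.97 against 0.35. Fos at -1.30 against -0.41 and Spred3 at -0.79 against -0.51 were also larger there. Gadd45a was at 0.77 against 0.64, and Txnip was smaller on slide 2, at 0.11 against 0.64. The direction therefore did not follow gene class throughout. Whether these sizes differ between slides was not tested, since slide 2 has 1 AP5 array.

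With the block, the adjusted p was 0.105 for Bdnf, 0.111 for Npas4, 0.26 for Arc, 0.265 for Dusp6, 0.21 for Plk3 and 0.213 for Ptgs2, and 0.0097 for Nr4a1 and 0.0020 for Icosl. With slide as a random block all 8 passed the threshold, but the estimated correlation within slides was -0.0777, and a value below 0 makes no allowance for arrays of a slide being alike. The astrocyte markers differed between AP5 and NVP by a median of -0.90 on slide 2 and 0.45 off it, and their part in these values was not tested.

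**Figure D4:**
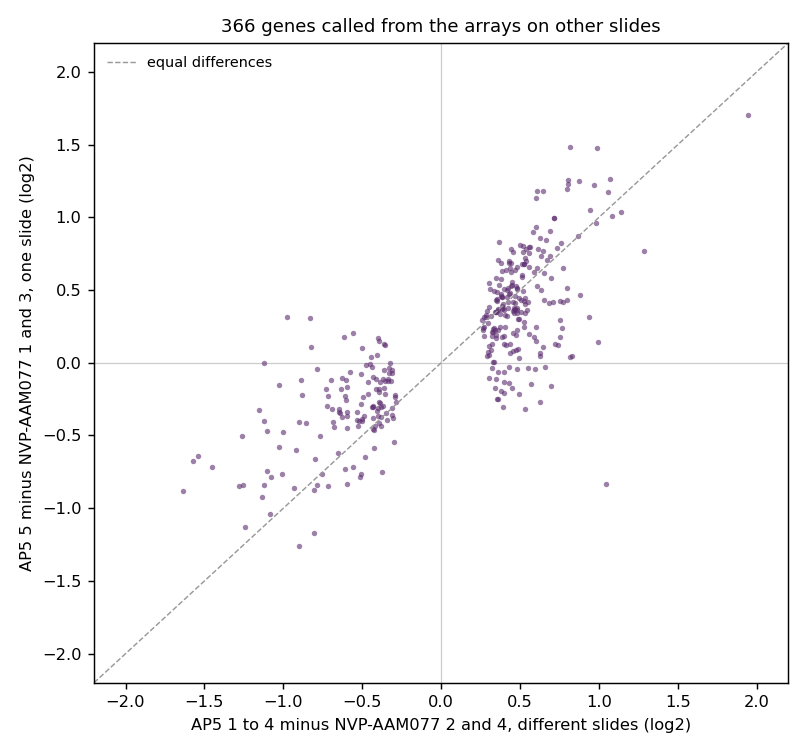
AP5 minus NVP-AAM077 (log2) on the arrays off slide 2 (horizontal) and on slide 2 (vertical) for the 366 genes called off slide 2, each point 1 gene and the dashed line equal differences. Of these points 328 fall in the 2 quadrants of equal sign.

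The reference RNA was the same on every array, so the green channel should carry no difference between treatments. Green alone called 11 genes (0.0573%) between AP5 and NVP arrays, 3 higher and 8 lower, of which 4 were among the 814. Red alone gave 803 of the 814 the same direction. Of called genes at 1.5-fold or more with another kept probe, the other probes' median had the same sign and reached 50% of the difference for 16 of 28 higher genes (57.1%) and 13 of 21 lower genes (61.9%), and had the opposite sign for 1 of each.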

How the data were processed

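RNA on 19 2-colour Agilent mouse arrays was read as neuron RNA in Cy5 (red) over 1 universal reference in Cy3 (green), with no dye swaps. Per the file headers, the authors extracted each spot's intensity with Feature Extraction 9.5.3.1 (the submitters' processing notes name version 11.0), and the deposited log10 ratio was background-subtracted and dye-normalized. The authors' processed table holds log2 values of 20674 probes with median 0.035 to 0.047 per AP5 or NVP array. Set against the ratios computed here it is log2 of red over green (correlation 0.9996 to 0.9998, slope 0.989 to 1.006), and its centring stays unknown.

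Here, starting from mean intensities, flagged spots (122 to 244 on the 9 arrays) were left out, background was corrected by normexp (offset 50) and ratios by loess within each array. Vehicle 5, which entered the vehicle means and the shared spread, had 1642 flagged gene spots, against 117 to 266 on the other arrays. Its part in the results was not tested. Probes with red well above background on at least 4 arrays were kept (28653 of 41174), and the brightest probe stood for each of 19201 genes. Of the 41174 probes, 23374 were named by accession, 6733 by symbol and 2919 by synonym through a RefSeq table (GRCm38.p6), and 8148 kept the file's name. The model was limma 3.58.1 in R 4.3.3 with a mean per group over all 19 arrays, two-sided, with Benjamini-Hochberg adjustment over all genes and a threshold of 0.05. It was tested on simulated data: 74 of 100 genes changed by 0.5 (log2) and 99 of 100 changed by 1 were called, with 8 unchanged genes called. The simulated noise was independent between arrays and genes and held no slide effect. These counts therefore check the model and do not give the error rate of this design, where slides are tied to treatment. No pair of arrays shared more than 0.0161% of its red signals exactly.

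Named were the 12 largest called genes each way with a current symbol and no overlap, up to 3 called members per list by smallest p (or the member with the smallest p) and 7 set genes: Grin1, Grin2a, Grin2b, Bdnf, Hdac4, Npas4 and Icosl. The other 17 called list members were named after their values were seen. Values of 3 genes that the rule names are not reported here, and counts over genes and lists include them. The members and the 32 lists were chosen with earlier results of these data known. Alternatives (normalization, filters, probes, slide, covariates, arrays left out) are in the closing section.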

Additional observations from a re-analysis of the deposited data

Results flagged for a closer look

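Of 179 sets of AP5 or NVP values tested (the named genes and the marker means), 12 held an array whose gap to the next one exceeded Dixon's 95% critical value, where chance flags about 1 in 20. NVP 4 gave 6 of the 12. It was the highest NVP array for Arc (2.84, the others 2.36 to 2.42), Dusp6 (0.64, the others -0.15 to -0.055) and Plk3 (-0.013, the others -0.62 to -0.52). It was the lowest for Fos (-3.17, the others -2.59 to -2.49), Icosl (0.072, the others 0.53 to 0.59) and Sesn1 (-0.95, the others -0.48 to -0.43). The same array had the lowest astrocyte marker mean of its group, and the part of this in these values was not tested.

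NVP 2 was lowest for Gria1 (5.51, the others 5.81 to 5.85) and Ica1l (-0.49, the others -0.17 to -0.11). NVP 1 was highest for Gria2 (6.00, the others 5.93 to 5.94). AP5 5 was lowest for Cck (6.02, the others 6.36 to 6.50) and Pfkfb3 (0.56, the others 1.03 to 1.12). AP5 4 was highest for Hdac4 (1.08, the others 0.74 to 0.84).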

How the results depend on the processing

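In 20 of 27 settings, every gene called between AP5 and NVP that had a value kept its direction, and in the other 7 between 1 and 16 genes did not (16 of 736 in the authors' processed table). The counts of higher and lower genes moved by more than 1.5 times with log ratios scaled to one spread (179 and 94). They also did with spots flagged by the software kept in the background and loess fits but given no value (173 and 103). The same held with only the 9 AP5 and NVP arrays (349 and 169), with slide fixed as a block (142 and 41) and without the slide 2 arrays (232 and 139). It held too with the astrocyte marker mean as a covariate (1054 and 596) and with array weights (921 and 629). Without AP5 5 and NVP 4, chosen after the data were seen, the counts were 348 and 165, a move of that size as well. The cause of these moves was not tested. The range without 1 array was 346 to 568 higher (lowest without NVP 2) and 170 to 257 lower (lowest without NVP 1). The replicate numbers are shared between groups, and the labels do not say whether they mark a shared preparation. Deviations of same-numbered arrays had correlations of -0.20, 0.090, 0.24 and -0.32. So few values, with slides tied to treatment, cannot decide whether the numbers pair samples. With the replicate block the counts were 354 and 176. Of 63 named genes called, 48 kept the call without any 1 array and 17 kept it in every setting. The sign turned in 2 cases: Egr4 in the deposited log ratio (0.54) and Gria1 in red alone (-0.067). With 5 and 4 arrays, the median half-width of a 95% interval was 0.17, without adjustment for the number of genes. The adjusted threshold asked for more: the median size of a called difference was 0.35. Hdac4 (0.46) and Lrrtm1 (0.50) were not called, so differences well above 0.17 could also be missed.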
